A study of Homo sapiens with 28 samples.

Results

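The genes described are 10 known transcriptional targets of WNT/β-catenin signaling, AXIN2, LGR5, NKD1, ASCL2, RNF43, ZNRF3, TCF7, LEF1, NOTUM and SP5, chosen by their symbols. All 10 were found among the 58278 genes of the count table, 9 had at least 1 count, and 6 (AXIN2, NKD1, RNF43, ZNRF3, TCF7 and NOTUM) had enough counts to be tested in tumors and in cultures. HCT116 is a human colorectal carcinoma line known to carry an activating mutation of CTNNB1, the gene of β-catenin, a fact the counts themselves cannot show. RNA was sequenced from 16 HCT116 xenograft tumors of NOD-SCID mice, which lack B and T cells but keep macrophages, given vehicle (Control, 3 tumors), Palbociclib (5), Telaglenastat (4, spelled Telaglenestat in the labels) or both drugs (Combination, 4) by mouth each day, and from 12 cell lines derived from such tumors, 3 for each treatment. Palbociclib inhibits the cell cycle kinases CDK4 and CDK6, and Telaglenastat inhibits glutaminase. The derived lines, called cultures here, grew without drug, so their treatment is that of the mouse the tumor came from. The tumor from which each line came was not given, and all groups descend from 1 cell line.

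In WNT signaling, a secreted ligand bound to a Frizzled receptor and an LRP co-receptor stops the APC, AXIN and GSK3 complex from marking β-catenin for degradation. β-catenin then enters the nucleus, binds proteins of the TCF/LEF family on DNA and switches on target genes. In the intestinal crypt this program maintains stem cells, which are marked by LGR5 and ASCL2. Several targets encode inhibitors of the pathway itself. AXIN2 is a scaffold of the degradation complex, NKD1 binds Dishevelled, RNF43 and ZNRF3 are membrane ubiquitin ligases that remove Frizzled receptors, and NOTUM is a secreted enzyme that inactivates WNT ligands. TCF7 and LEF1 are DNA-binding partners of β-catenin, and SP5 is a zinc finger transcription factor.

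TCF/LEF proteins are known to recognize a short core sequence, so promoter sequence is shown for a member that holds such letters and for a member whose RNA level differed between tumors. Promoter windows of 300 bases from RefSeq (GRCh38.p14) were on hand for 4 of the 10 members, SP5, RNF43, TCF7 and LEF1, in 6 windows. CTTTGAA and CTTTGAT were searched on both strands. SP5 held 3 matches, with leftmost bases at -148, -109 and -84 from the start site, and the other 5 windows held none. Over all 35116 windows of that length, 6.86% held at least 1 match and 0.0256% held at least 3. A match describes letters and is not a measured binding site. The bases before the start site are given 5′ to 3′ on the gene's strand, in lower case with the matched letters in capitals. The SP5 sequence is chr2:170715087-170715336 on the plus strand, and the RNF43 sequence is chr17:58417596-58417784 on the minus strand.
SP5: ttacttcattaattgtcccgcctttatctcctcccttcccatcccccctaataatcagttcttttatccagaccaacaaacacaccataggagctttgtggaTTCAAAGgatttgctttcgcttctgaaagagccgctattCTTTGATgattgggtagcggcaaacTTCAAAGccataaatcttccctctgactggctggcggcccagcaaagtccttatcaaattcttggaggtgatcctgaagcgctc
RNF43: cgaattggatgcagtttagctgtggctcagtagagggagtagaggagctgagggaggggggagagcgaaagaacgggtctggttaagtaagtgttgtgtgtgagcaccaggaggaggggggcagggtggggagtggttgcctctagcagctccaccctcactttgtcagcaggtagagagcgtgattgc

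Library totals were 6273834 to 10617936 counts in tumors and 7198540 to 13815675 in cultures, and levels are given as CPM (a count scaled to its library's total) on one scaling of all 28 libraries (TMM, a scaling that assumes most genes are unchanged). All 5 epithelial markers (EPCAM, KRT8, KRT18, KRT19 and CDH1) were present in every group. Their sum was 2781 to 3304 CPM in Control tumors and 1496 to 1651 CPM in Telaglenastat tumors. Mean KRT8, KRT18 and KRT19 were lower in Telaglenastat than in Control tumors. EPCAM was at 470 against 416 CPM there, and CDH1 at 164 against 167 CPM. Tumors had counts of fibroblast and macrophage marker genes that cultures mostly lacked. Summed endothelial markers were low in both settings, at most 2.60 CPM in tumors and 1.23 CPM in cultures. Summed fibroblast markers were 168.6 to 210.4 CPM in Control tumors, 51.8 to 61.6 CPM in Telaglenastat tumors and at most 12.3 CPM in cultures. The fibroblast markers DCN and LUM were at or near 0 in every group, and PDGFRB averaged at most 0.656 CPM. COL1A1 had the highest level of these markers in every tumor group. Summed macrophage markers were 15.3 to 20.5 CPM in Control tumors and 2.62 to 9.60 CPM in Telaglenastat tumors. Of these markers, PTPRC and CD14 were at or near 0 in every group. Reads were aligned to the human build hg38, while host cells of a xenograft are mouse cells. Whether these counts came from mouse cells or from the HCT116 cells was not tested. The part of these transcripts in the results was not tested, and in bulk RNA fewer cells of a type cannot be told apart from less RNA per cell. Libraries also differed in how their counts depended on gene base composition. This was measured as deviation from each gene's mean over the libraries of the same setting, tumors or cultures. Per SD of GC content, the log2 CPM deviation had a slope of 0.254 ± 0.00642 (SD, n = 3) in Control tumors, 0.285 ± 0.106 (n = 5) in Palbociclib, -0.338 ± 0.0363 (n = 4) in Telaglenastat and -0.209 ± 0.0557 (n = 4) in Combination tumors. Each comparison was therefore also made after correcting every library for GC content and length, and the corrected values stand beside those they change. Every tumor given Telaglenastat, alone or in Combination, had a slope below 0 and every other tumor a slope above 0. The slope thus cannot be told apart from Telaglenastat treatment, and whether the correction also removes a response to the drug was not tested. The correction was computed in more than 1 form. The first form left the TMM scaling in place and is called corrected below. A second version, called recentred, also shifted each library so that the median of all genes returned to about 0, and it was chosen after the values were seen.

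**Figure D1:**
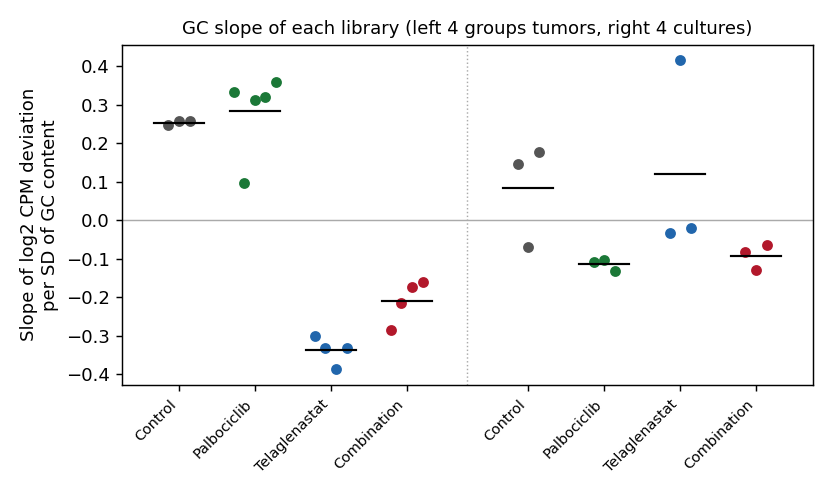
Slope of each library's log2 CPM deviation per SD of gene GC content (y axis) in the 4 tumor groups and 4 culture groups (x axis); points are libraries and lines are means. Control and Palbociclib tumors lie above 0 and Telaglenastat and Combination tumors below it, while 1 Telaglenastat culture lies at 0.417. Deviations were taken from the mean of each setting, so values of tumors and of cultures are not on a common scale.

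The stem cell markers and LEF1 were at the limit of detection in these cells. LGR5, the receptor of R-spondins, had 14 counts in 8 of 28 libraries. In cultures, LGR5 counts were 0, 0 and 0 in Control, 0, 0 and 1 in Palbociclib, 0, 2 and 1 in Telaglenastat, and 1, 4 and 2 in Combination lines. The 3 Combination cultures each had a count, but only 1 of them exceeded 3 counts, the number taken as the limit that a count of 0 allows (0.217 to 0.478 CPM per library). In tumors, LGR5 had 2 counts in 1 Control tumor, 1 count in 1 Telaglenastat tumor and none in the rest. LEF1 had 4 counts, 2 in a Control tumor and 2 in a Combination culture. ASCL2, a transcription factor of crypt stem cells, had 0 counts in all 28 libraries, which allows a level of up to 0.0130 CPM over the pooled libraries. These limits cover counting error only.

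SP5 was detected in 23 libraries with 90 counts in all and was not tested. Its counts in tumors were 4, 6 and 7 in Control, 6, 4, 3, 6 and 0 in Palbociclib, 3, 0, 1 and 2 in Telaglenastat, and 3, 0, 4 and 3 in Combination. No Telaglenastat tumor exceeded 3 raw counts, while the 3 Control tumors had 4 or more. Library totals were 6463239 to 6853368 in Telaglenastat and 7539298 to 8849414 in Control tumors. SP5 transcripts have a GC content of 66.2%, and no GC-corrected value of SP5 was computed. The part of base composition in its values was therefore not tested. Mean SP5 levels were 0.662 ± 0.222 CPM (SD, n = 3) in Control and 0.220 ± 0.187 CPM (n = 4) in Telaglenastat tumors. In cultures the means were between 0.221 and 0.516 CPM, and the ranges of all 4 groups overlapped.

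**Figure D2:**
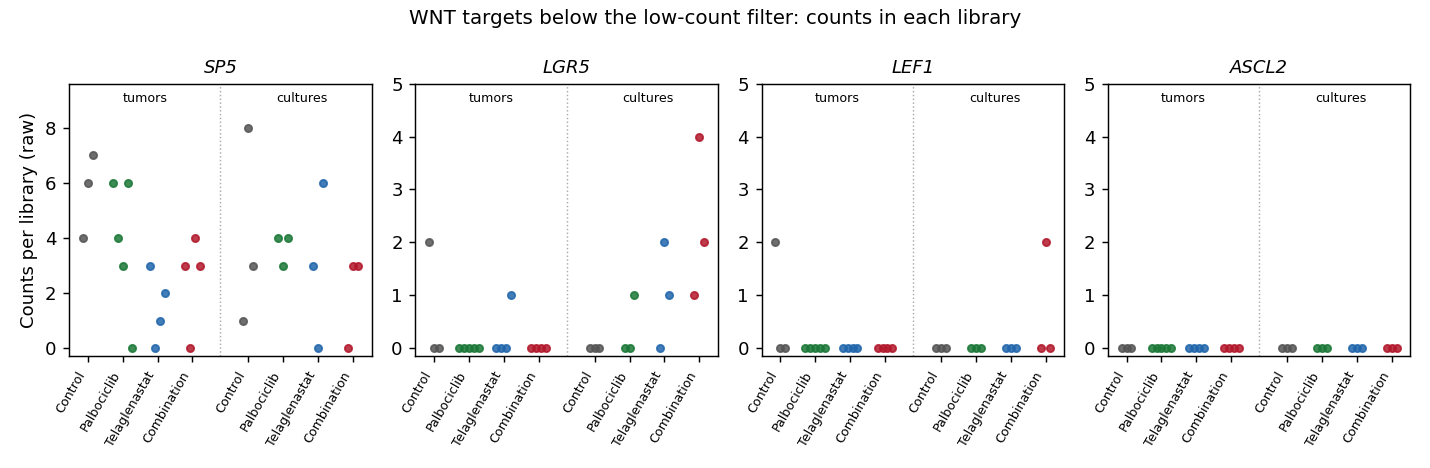
Raw counts per library (y axis) of SP5, LGR5, LEF1 and ASCL2 in the 4 tumor groups and 4 culture groups (x axis); each point is a library. SP5 reaches 8 counts, LGR5 reaches 4, LEF1 has counts in 2 libraries and ASCL2 in none.

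Among the 6 tested members, RNF43 and AXIN2 had the highest levels per length of exon. In Control tumors they reached 6.44 (RNF43) and 5.19 (AXIN2) CPM per kilobase, against 3.53 for ZNRF3, 1.89 for TCF7, 0.651 for NKD1 and 0.594 for NOTUM. In Control cultures the same quantity was 3.99 for RNF43, 3.05 for AXIN2, 2.26 for ZNRF3, 1.92 for TCF7, 0.602 for NKD1 and 0.282 for NOTUM. The length is that of all annotated exons of a gene together, 17425 bases for NKD1 and 10063 for TCF7 against 5226 for AXIN2. The transcripts present may be shorter, which was not tested, so the order depends on this choice of length. CTNNB1 itself had 392 ± 14.3 CPM (n = 3) in Control tumors and 518 ± 32.8 CPM (n = 3) in Control cultures. Reads of some members may include those of overlapping genes, since the strand setting of the counting was not given. RNF43 (chr17:58352500-58417595, minus strand) overlaps SUPT4H1 and AC004687.2 on its strand and TSPOAP1-AS1 on the other, and TCF7 (chr5:134114711-134151865, plus strand) overlaps SKP1 on the other strand, in the GENCODE 29 annotation of GRCh38.

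**Figure D3:**
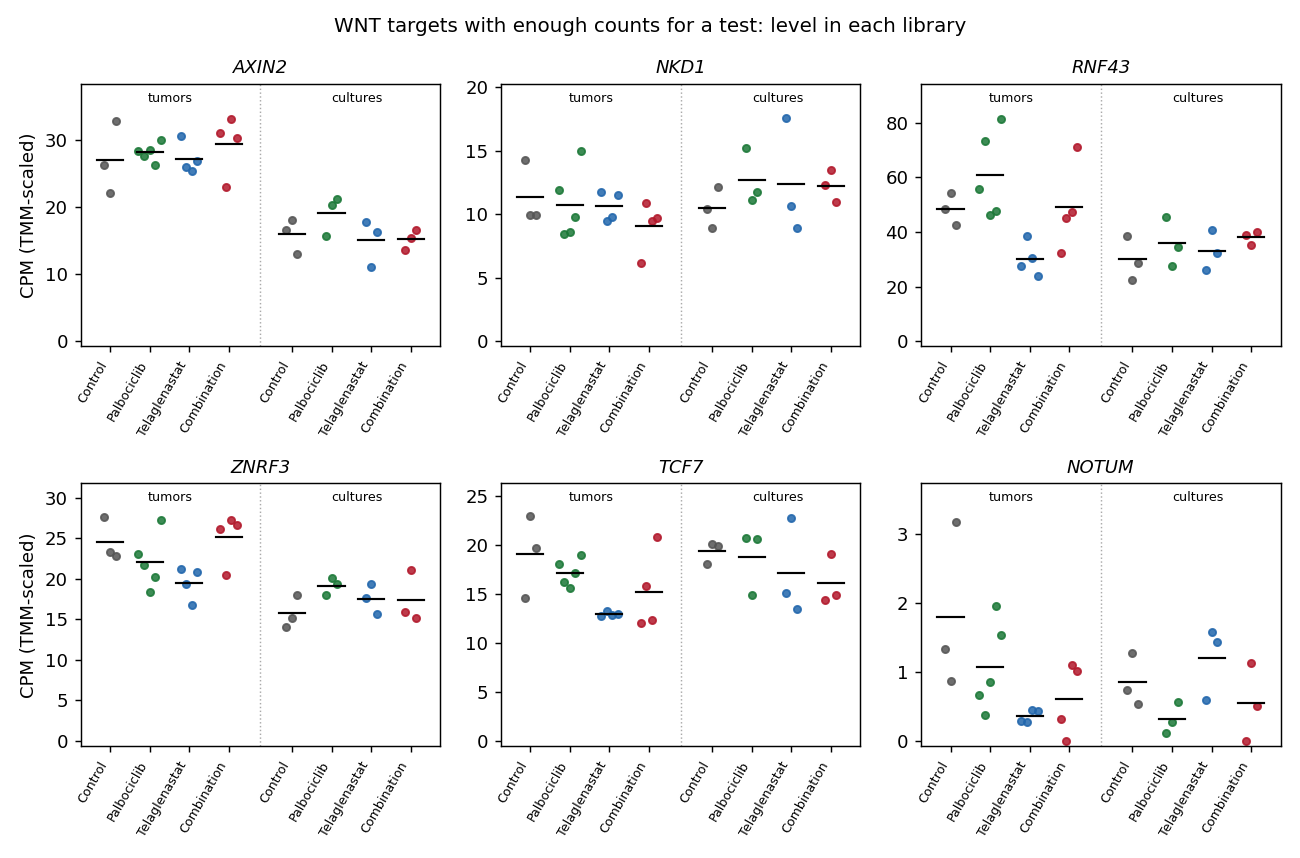
Level in CPM (y axis, from 0) of the 6 tested members in each library of the 4 tumor groups and 4 culture groups (x axis); points are libraries and lines are group means. RNF43, TCF7 and NOTUM are lower in each of the 4 Telaglenastat tumors than in the 3 Control tumors. AXIN2 is higher in each tumor than in any culture.

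Telaglenastat tumors had lower RNF43, TCF7 and NOTUM than Control tumors, 3 of the 6 tested members, and none was higher. In this comparison 51.1% of all genes tested were called (edgeR's quasi-likelihood test, adjusted p below 0.05), so the share of members called was close to the background. The median log2 difference was -0.43 over the 6 members and 0.03 over all genes. The order of the medians turned with the correction, at -0.11 for the members and -0.20 for all genes, and was 0.10 and 0.01 with libraries recentred. All calls below use this test, with Benjamini-Hochberg adjustment over all genes tested. The p-values measure the spread between these libraries, and the labels do not say what separates the replicates.

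RNF43 had 48.5, 54.2 and 42.4 CPM in the Control tumors and 27.6, 38.7, 30.5 and 23.9 CPM in the Telaglenastat tumors. Every Telaglenastat tumor lay below every Control tumor. The log2 fold change was -0.66 ± 0.23 (SE), or 0.632 of Control (adjusted p = 0.0214 by edgeR). With the GC and length correction it was -0.71 ± 0.23 (adjusted p = 0.0261), while the median of all genes moved to -0.20 under that correction. With libraries recentred it was -0.50 ± 0.23 and no longer called (adjusted p = 0.168), and DESeq2 did not call it either (adjusted p = 0.0524). The call was also lost without Control tumor 2 (adjusted p = 0.0845) and without Telaglenastat tumor 4 (adjusted p = 0.0666).

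TCF7 had 14.6, 22.9 and 19.7 CPM in the Control tumors and 12.8, 13.2, 12.8 and 12.9 CPM in the Telaglenastat tumors. The 4 Telaglenastat tumors lay close together and below all Control tumors, which were spread more widely. The log2 fold change was -0.54 ± 0.18 (adjusted p = 0.0159 by edgeR). It was -0.14 ± 0.18 with the GC and length correction (adjusted p = 0.576) and 0.07 ± 0.18 with libraries recentred (adjusted p = 0.853). Without Control tumor 2 it was -0.38 (adjusted p = 0.122).

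NOTUM had 1.33, 0.873 and 3.17 CPM in the Control tumors and 0.291, 0.270, 0.453 and 0.436 CPM in the Telaglenastat tumors. These values rest on 8 to 25 counts per Control tumor and 2 or 3 counts per Telaglenastat tumor. The log2 fold change was -2.24 ± 0.78 (adjusted p = 0.0220 by edgeR), with a 95% interval from -3.87 to -0.60. NOTUM transcripts have a GC content of 66.5%, the highest of the tested members, and the corrected fold change was -0.82 ± 0.77 (adjusted p = 0.456). The call was lost without Control tumor 3 (-1.55, adjusted p = 0.166) and without Telaglenastat tumor 2 (-2.12, adjusted p = 0.0508).

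ZNRF3 had 27.7, 23.2 and 22.8 CPM in Control and 21.2, 19.3, 16.8 and 20.8 CPM in Telaglenastat tumors, ranges that do not overlap. Its log2 fold change of -0.31 ± 0.14 was not called (adjusted p = 0.0743). With the correction it was -0.08 ± 0.14 (adjusted p = 0.720), and it had the other sign with libraries recentred (0.14). Without the correction it was called when only these 2 groups entered the fit (adjusted p = 0.0468).

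AXIN2, often used as a readout of the pathway, had 26.3, 22.2 and 32.9 CPM in Control and 30.7, 26.1, 25.5 and 26.9 CPM in Telaglenastat tumors, and the ranges overlapped. Its log2 fold change was 0.03 ± 0.14 (adjusted p = 0.868), with a 95% interval from -0.25 to 0.32. With the correction it was 0.23 ± 0.13 (adjusted p = 0.199), and with libraries recentred it was 0.44 ± 0.13 and called higher (adjusted p = 0.0253). AXIN2 therefore has no call on the uncorrected scale, and whether it is called after the correction depends on the form used. NKD1 averaged 11.4 ± 2.49 CPM in Control and 10.6 ± 1.17 CPM in Telaglenastat tumors, and was not called.

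Under the first form of the correction, 29.6% of all genes were called in this comparison and RNF43 was the only member among them. Under the recentred form 14.8% of genes were called, and AXIN2 was the only member.

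**Figure D4:**
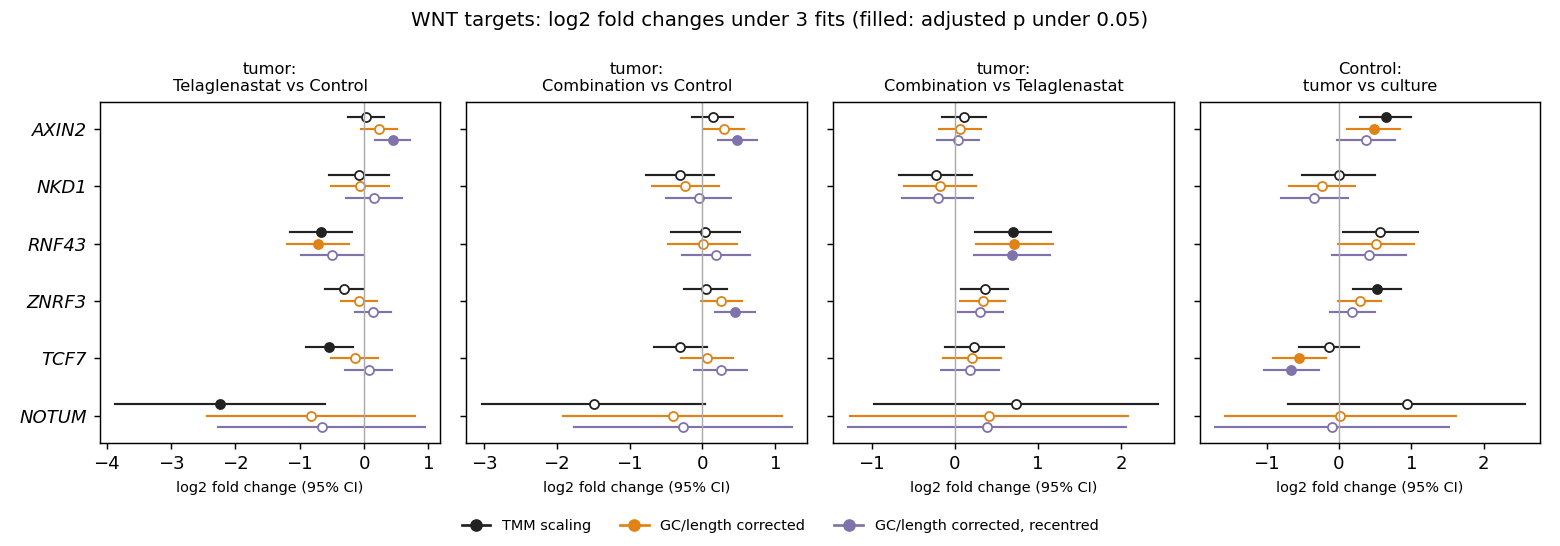
Log2 fold changes with 95% intervals (x axis) of the 6 tested members (y axis) in 4 comparisons, under TMM scaling, with the GC and length correction, and with that correction and recentred libraries; filled points have an adjusted p below 0.05. RNF43 is called in Combination against Telaglenastat tumors in all 3 fits. In Telaglenastat against Control tumors the called members differ between the fits.

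No member was called between Palbociclib and Control tumors, where 6.16% of all genes were called. None of the 6 had an unadjusted p below 0.05 (2701 of all 14848 genes did), and DESeq2 called none of the 6. RNF43 had 55.9, 73.1, 46.3, 47.7 and 81.2 CPM in the Palbociclib tumors, 3 of them above all Control tumors. Its log2 fold change was 0.34 ± 0.21 (adjusted p = 0.454), and it was called only when no filter on low counts was applied (adjusted p = 0.0327). AXIN2 was 26.4 to 30.1 CPM in the 5 Palbociclib tumors, within the range of the Control tumors. Its log2 fold change was 0.07 ± 0.13 (adjusted p = 0.847). The correction left no member called, at a background of 7.75%.

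No member was called between Combination and Control tumors either, where 44.5% of all genes were called. None of these 6 had an unadjusted p below 0.05, against 7580 of all 14848 genes, and DESeq2 called no member. AXIN2 had 31.1, 23.05, 33.3 and 30.3 CPM in the Combination tumors, overlapping the Control tumors, and a log2 fold change of 0.14 ± 0.14 (adjusted p = 0.439). RNF43 had 32.2, 45.1, 47.4 and 71.2 CPM, the widest range of the 4 tumor groups, and a log2 fold change of 0.04 ± 0.23 (adjusted p = 0.908). NOTUM was 0.605 ± 0.534 CPM (n = 4), from 0 to 8 counts per tumor, and its log2 fold change of -1.50 ± 0.74 was not called (adjusted p = 0.107). That value was -0.41 ± 0.72 with the correction and -0.27 with libraries recentred. TCF7 was called lower without Control tumor 1 (-0.47, adjusted p = 0.0484) and without Combination tumor 4 (-0.49, adjusted p = 0.0213), while with all tumors it was -0.30 ± 0.18 (adjusted p = 0.173), and 0.06 with the correction. The correction called no member, at a background of 33.7%. With libraries recentred, AXIN2 (0.48 ± 0.13, adjusted p = 0.00960) and ZNRF3 (0.45 ± 0.13, adjusted p = 0.0176) were called higher, at a background of 26.4%. Mitochondrial transcripts took 13.2 to 14.8% of counts in Combination tumors and 6.78 to 7.22% in Control tumors, and their part in these values was not tested.

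Between Combination and Palbociclib tumors, 47.6% of all genes were called and no member was. No member had an unadjusted p below 0.05, against 7971 of all 14848 genes, and DESeq2 called no member. ZNRF3 had 26.2, 20.4, 27.2 and 26.6 CPM in Combination and 18.3 to 27.2 CPM (median 21.7) in Palbociclib tumors, with overlapping ranges. It was called higher with the correction (0.42 ± 0.12, adjusted p = 0.0132, background 28.3%) and with libraries recentred (0.60 ± 0.12, adjusted p = 0.00132, background 15.4%). AXIN2 was called only with libraries recentred (0.41 ± 0.11, adjusted p = 0.0176). RNF43 was called lower without Combination tumor 4 (-0.54, adjusted p = 0.0284).

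RNF43 was higher in Combination than in Telaglenastat tumors, the only member called in that comparison, where 18.8% of all genes were called. The log2 fold change was 0.70 ± 0.22 (adjusted p = 0.0291 by edgeR). It was 0.72 ± 0.22 with the correction (adjusted p = 0.0306, background 16.4%) and 0.69 ± 0.22 with libraries recentred (adjusted p = 0.0380, background 15.7%). The ranges overlapped, since Combination tumor 1 had 32.2 CPM and Telaglenastat tumor 2 had 38.7 CPM. The call was lost in 5 of 16 fits that left out 1 tumor each. Without Combination tumor 4, which had the highest level, the log2 fold change was 0.47 (adjusted p = 0.138). The adjusted p was 0.0522 without Combination tumor 3, and 0.0699, 0.0598 and 0.0933 without Telaglenastat tumors 1, 3 and 4. Leaving out Combination tumor 2 brought ZNRF3 to a call (0.45, adjusted p = 0.0306).

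In the cultures, no member was called in any of the 5 comparisons. The background there was 0% in Palbociclib, 0% in Telaglenastat and 0.00715% in Combination against Control, and 0% in Combination against each drug. Over the 5 comparisons, 277 to 1969 genes had an unadjusted p below 0.05 and DESeq2 called 0 to 125 genes. None of the 6 members had an unadjusted p below 0.05 in any of them, and DESeq2 called none. The 3 Telaglenastat cultures differed most from each other. The squared difference of 2 libraries relative to counting error, averaged over genes, was 36.7 to 46.4 among them. It was 4.70 to 10.9 in the other culture groups. All culture groups shared the estimate of spread, so this entered all 5 comparisons and limits what they could detect. No member was called when any 1 culture was left out. AXIN2 had 16.7, 18.1 and 13.1 CPM in Control cultures, 15.8, 20.4 and 21.2 CPM in Palbociclib, 17.8, 11.2 and 16.4 CPM in Telaglenastat, and 13.7, 15.4 and 16.7 CPM in Combination cultures. The 95% intervals of its log2 difference from Control were -0.23 to 0.65 for Palbociclib, -0.55 to 0.34 for Telaglenastat and -0.54 to 0.36 for Combination, so differences of up to these sizes were not excluded. RNF43 had 38.5, 22.4 and 28.8 CPM in Control cultures and 26.0 to 45.5 CPM in the other 9, and neighboring ranges overlapped. TCF7 had 18.03, 20.1 and 19.9 CPM in Control and 15.1, 22.7 and 13.5 CPM in Telaglenastat cultures. NOTUM had 0.741, 1.27 and 0.541 CPM in Control and 0.596, 1.58 and 1.44 CPM in Telaglenastat cultures.

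Whether the differences from Control were themselves different in tumors and in cultures was tested by interaction, and no member was called for Palbociclib (background 1.39%), Telaglenastat (34.1%) or Combination (2.91%). DESeq2 called none in any of the 3. At an unadjusted p below 0.05 there was 1 member, NOTUM in the Telaglenastat interaction, at -2.63 ± 1.15 (adjusted p = 0.0776). Of all 15466 genes tested, 6767 were below that threshold in the Telaglenastat, 2159 in the Palbociclib and 3211 in the Combination interaction. With the correction NOTUM was at -0.94 ± 1.14 (adjusted p = 0.709), and at -0.85 with libraries recentred. Members with an unadjusted p below 0.05 in the corrected fit were RNF43 for Telaglenastat (-0.80 ± 0.35, adjusted p = 0.180) and ZNRF3 for Palbociclib (-0.51 ± 0.20, adjusted p = 0.282), neither of them called. The number of all genes below that threshold was not computed for the corrected fit. The NOTUM interaction was called when, without the correction, only the 4 groups concerned entered the fit (-2.60, adjusted p = 0.0400). The corresponding value for RNF43 was -0.69 ± 0.35 (adjusted p = 0.128), and it was called without the filter on low counts (adjusted p = 0.00228).

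Control tumors had higher AXIN2 and ZNRF3 than Control cultures, 2 of the 6 tested members, at a background of 45.9%. AXIN2 had 22.2 to 32.9 CPM in the 3 tumors and 13.1 to 18.1 CPM in the 3 cultures, and the log2 fold change was 0.65 ± 0.17 (adjusted p = 0.00283 by edgeR). ZNRF3 had 22.8 to 27.7 CPM and 14.1 to 17.98 CPM, and the log2 fold change was 0.53 ± 0.16 (adjusted p = 0.00817). RNF43 ranges did not overlap either, and its log2 fold change of 0.57 ± 0.25 was not called (adjusted p = 0.0675). It was called by DESeq2 (adjusted p = 0.0372), with only these groups in the fit (adjusted p = 0.0145), without Control culture 1 (adjusted p = 0.0272) and without Combination tumor 4 (adjusted p = 0.0485). With the correction AXIN2 remained called (0.48 ± 0.18, adjusted p = 0.0330), ZNRF3 did not (0.28 ± 0.15, adjusted p = 0.130), and TCF7 was called lower in tumors (-0.55 ± 0.18, adjusted p = 0.0171), at a background of 39.3%. With libraries recentred, TCF7 alone was called (-0.66 ± 0.18, adjusted p = 0.00481), at a background of 40.5%. Without Control tumor 1, ZNRF3 was at 0.44 (adjusted p = 0.0504). Fibroblast markers also differed between the Control tumors and the Control cultures, and their part in these values was not tested. The GC slope was measured within each setting and gives no comparison of tumors with cultures.

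Over all 8 conditions, AXIN2 was highest in Combination tumors (29.4 CPM) and lowest in Telaglenastat cultures (15.1 CPM). The 4 tumor groups followed each other with overlapping ranges, the 4 culture groups did so too, and the gap lay between Control tumors and Palbociclib cultures. RNF43 was highest in Palbociclib tumors (60.8 CPM) and lowest in Control cultures (29.9 CPM), and Telaglenastat tumors (30.2 CPM) stood among the cultures. Its only neighbors without overlap were Control tumors and Combination cultures. For NKD1 all neighbors in the order overlapped, from 12.7 CPM in Palbociclib cultures to 9.04 CPM in Combination tumors. After the mean of each setting was subtracted, the genes whose group means moved most like AXIN2 were PSME2P2 (Pearson's r = 0.981), IDH3A (0.962), PDHX (0.945), BZW2 (0.925) and LMAN2L (0.922), over 8 conditions and among 12531 genes with at least 1 CPM in each. These values are a description, since they are the highest among 12531 genes over only 8 means. The groups also differed in depth and, among tumors, in GC slope.

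The other genes of the pathway were described by role, in 6 lists. In Telaglenastat against Control tumors, where the lists are first counted, 51.1% of all genes tested were called (4238 lower and 3352 higher), 29.6% with the correction (3932 lower and 467 higher) and 14.8% with libraries recentred (1247 lower and 946 higher). The corrected fit thus had mostly lower calls over all genes, and the counts of each list are to be read against these. Of 12 ligand and export genes tested in Telaglenastat against Control tumors, 3 were lower (PORCN, WNT9A and WNT7B) and 1 was higher (WNT2B), a smaller share than over all genes. With the correction none was called, and with libraries recentred 1 was higher. The median log2 difference of the list was -0.77, and -0.40 corrected, against 0.03 and -0.20 over all genes. PORCN, which attaches the lipid that WNT ligands need, was at 2.68 against 7.11 CPM (log2 fold change -1.38 ± 0.29, adjusted p = 0.000499). In Palbociclib against Control tumors, at a background of 6.16%, none of the 12 was lower and 2 were higher (3 with the correction and 3 recentred), WNT16 (68.9 against 35.1 CPM, 0.99 ± 0.19, adjusted p = 0.00265) and WLS, the carrier that takes WNT ligands to the cell surface (71.5 against 56.7 CPM, 0.35 ± 0.09, adjusted p = 0.0221). Both were also higher in Combination tumors (WNT16 0.87 ± 0.20, adjusted p = 0.00154, and WLS 0.39 ± 0.10, adjusted p = 0.00238), but not with the correction (adjusted p = 0.101 and 0.355). In that comparison (44.5% of all genes called) 1 ligand gene was lower and 2 were higher. With the correction (33.7%) none was lower and 2 other genes were higher, WNT10A (1.60, adjusted p = 0.0281) and WNT10B (1.02, adjusted p = 0.00789), named after their values were seen. With libraries recentred (26.4%) none was lower and 5 were higher.

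Of 13 receptor genes, 3 were lower and 6 higher in Telaglenastat tumors, while with the correction 6 were lower and 1 higher, and with libraries recentred 1 was lower and 2 were higher. The median was 0.22, and -0.26 corrected. LRP5, a co-receptor, was at 4.84 against 22.98 CPM (-2.22 ± 0.22, adjusted p = 9.64e-08), and remained called with the correction (-1.08, adjusted p = 8.43e-05). FZD6, a Frizzled receptor, was at 151 against 119 CPM (0.36 ± 0.08, adjusted p = 0.000884), and had the other sign with the correction (-0.21, adjusted p = 0.0484). Combination against Control tumors gave 3 receptor genes lower and 4 higher (background 44.5%), 2 and 2 with the correction (33.7%), and 1 and 2 with libraries recentred (26.4%). LGR4, an R-spondin receptor related to LGR5, was at 25.5 against 14.5 CPM (0.83 ± 0.17, adjusted p = 0.000632, and 0.46 corrected, adjusted p = 0.0454).

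Of 16 genes of cytoplasmic transduction, 7 were lower and 7 higher in Telaglenastat tumors, with the correction 7 were lower and none higher, and with libraries recentred 2 were lower and none higher. The median was 0.01, and -0.16 corrected. GSK3A, a kinase of the degradation complex, was at 17.1 against 64.7 CPM (-1.90 ± 0.18, adjusted p = 5.48e-08), with a corrected value of -1.81. CTNNB1 was at 460 against 392 CPM (0.25 ± 0.07, adjusted p = 0.00539), and at -0.23 (adjusted p = 0.00600) with the correction, so its direction depends on the correction. Of 13 genes of the nuclear complex, 5 were lower and none higher in Telaglenastat tumors, while with the correction 3 were lower and 3 higher, and with libraries recentred 0 were lower and 5 higher. The share called in this list was below that over all genes in the first fit. The median was -0.24, and -0.21 corrected. BCL9L, a co-activator bound to β-catenin, was at 27.6 against 71.0 CPM (-1.34 ± 0.13, adjusted p = 1.25e-07), and at -0.21 (adjusted p = 0.0747) with the correction.

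Of 5 secreted and surface antagonists tested, 2 were lower (KREMEN1 and KREMEN2) and 2 higher (TPBG and DKK1) in Telaglenastat tumors. With the correction 1 was lower (KREMEN1) and none higher, and with libraries recentred none was called. The median was -0.75, and -0.31 corrected. DKK1, a secreted inhibitor of LRP co-receptors, was at 545 against 416 CPM (0.41 ± 0.13, adjusted p = 0.0129), and at -0.03 (adjusted p = 0.847) with the correction. DKK1 was lower in Palbociclib tumors, at 294 CPM (-0.49 ± 0.12, adjusted p = 0.0178, and -0.47 corrected).

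Of 12 other described WNT targets, 5 were lower and 2 higher in Telaglenastat tumors, 4 were lower and none higher with the correction, and 2 were lower and none higher with libraries recentred. The median was -0.15, and -0.17 corrected. EPHB2, a receptor that positions crypt cells, was at 11.8 against 34.5 CPM (-1.53 ± 0.14, adjusted p = 5.23e-08), with a corrected value of -1.07 (adjusted p = 3.26e-06). In Palbociclib against Control tumors 6.16% of all genes were called (535 lower and 379 higher), and 7.75% with the correction. Of the 12, none was lower and 2 were higher there (1 lower and 3 higher with the correction, and the same numbers recentred). These 2 were CCND1, which encodes the cyclin partner of CDK4 and CDK6 (981 against 511 CPM, 0.95 ± 0.08, adjusted p = 1.64e-06), and the metalloprotease MMP7 (85.9 against 32.4 CPM, 1.43 ± 0.16, adjusted p = 1.00e-05). Summed proliferation markers were 517 to 735 CPM in Palbociclib tumors and 1107 to 1209 CPM in Control tumors, and their part in these values was not tested. Between Control tumors and Control cultures, where 45.9% of all genes were called (3568 higher and 3531 lower), 8 of the 12 were higher in tumors and 1, CCND1, was lower. With the correction 8 were higher and 2 lower, and with libraries recentred 8 were higher and 3 lower. SOX4 was at 313 against 73.2 CPM (1.98 ± 0.19, adjusted p = 3.57e-09) and SOX9 at 200.3 against 86.2 CPM (1.10 ± 0.13, adjusted p = 1.36e-07). In the culture comparisons no gene of any of these 6 lists was called.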

How the data were processed

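HCT116 xenograft tumors and cultures derived from them were profiled by RNA-seq of poly(A) RNA. The authors aligned 60-base single-end reads with STAR (FastQ files from CASAVA 1.8, build hg38, per the labels and the study's methods) and deposited raw counts per gene without normalization. The annotation release and the strand setting of the counting are not given in the sources used here. Gene identifiers were matched to GENCODE 29 (57940 of 58278 genes), which gave lengths, GC content and overlaps.

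Groups were taken from the sample labels. Tumors (16 libraries, 14848 genes), cultures (12, 13985) and all libraries (28, 15466) were fitted by group with edgeR 4.0.16 in R 4.3.3. The filter on low counts was filterByExpr (min.count 10), libraries were scaled by TMM, and glmQLFTest was used with Benjamini-Hochberg adjustment over all genes at 0.05. DESeq2 1.42.0 was an alternative. The fits were tested on simulated counts that had no GC or length trend and few changed genes. That test cannot show how TMM or the correction performs on these tumors.

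The members, lists and comparisons were chosen with earlier results of these data known. The named genes were all 10 members, up to 3 called genes per list and direction by smallest adjusted p (of which some are given with values), and the 5 genes most like AXIN2. CTNNB1, WNT10A and WNT10B were named outside this rule. The GC and length correction was planned without fixing its form, and 3 forms were computed. Each used robust splines with 4 degrees of freedom of each library's log2 CPM deviation. The first fitted genes with a mean log2 CPM of at least 1 and was centred, so TMM scaling stayed. The other two, over all genes with and without centring, were added after seeing the data. The uncentred one is called recentred and changes some calls, so both are reported beside each other. Replicate numbers did not pair the samples (0 of 21 same-number pairs of tumors and 3 of 18 of cultures correlated above 0.1). No replicates agreed within sampling noise.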

Additional observations from a re-analysis of the deposited data

Results flagged for a closer look

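In 18 sets of 4 or 5 tumors (6 tested members in 3 groups), 1 value stood apart from its group by Dixon's test, about the number that chance gives at 1 in 20. It was ZNRF3 in Combination tumor 2, at 20.4 CPM, against 26.2 to 27.2 CPM in the other 3 Combination tumors. No interaction between setting and treatment was called for a member.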

How the results depend on the processing

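The number of members called kept within 1.5 times its value in all 14 comparisons with DESeq2 and with DESeq2 size factors. Without the low-count filter 1 member was called in Palbociclib against Control tumors, 1 in Combination against Palbociclib tumors and 1 in the Telaglenastat interaction, which also had 1 when only the groups compared were fitted. A replicate block, for numbers that did not pair the samples, gave 1 in Combination against Control tumors and 1 in the Telaglenastat interaction. The GC and length correction gave 1 in Telaglenastat against Control tumors and 1 in Combination against Palbociclib tumors, both also with the trend over all genes. The replicate block with the correction gave 1 and 1 there and 1 between Control tumors and cultures. With libraries recentred the counts were 1 in Telaglenastat against Control tumors, 2 in Combination against Control, 2 in Combination against Palbociclib and 1 between Control tumors and cultures. The forms of the correction other than the first were added after seeing the data, and the cause of the differences between them was not tested, beyond that the recentred form rescales each library. The share of all genes called was not recorded without the filter, with only the groups compared, with a replicate block or with 1 library left out. Whether member calls gained or lost in those fits went with a change over all genes was not tested.

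Log2 fold changes that took the other sign were TCF7 in Combination against Control tumors (0.0625 corrected, 0.0581 with the trend over all genes, 0.25 recentred and 0.0166 with block and correction), RNF43 in the same comparison (-0.0045 with the trend over all genes and -0.0182 with block and correction), ZNRF3 (0.14) and TCF7 (0.0712) in Telaglenastat against Control tumors recentred, and AXIN2 in Combination against Control cultures recentred (0.0233). Only TCF7 in Telaglenastat against Control tumors was called before.

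Leaving out 1 library at a time gave 1 to 3 members between Control tumors and cultures, 1 to 3 in Telaglenastat against Control tumors, 0 to 1 in Combination against Control, 0 to 1 in Combination against Palbociclib and 0 to 2 in Combination against Telaglenastat tumors. Log2 fold changes that crossed 0 in such fits, none of them called with all libraries, were RNF43 in cultures for Palbociclib (-0.0093 to 0.43) and Telaglenastat (-0.0670 to 0.35), AXIN2 in Telaglenastat cultures (-0.25 to 0.0840), TCF7 between Control tumors and cultures (-0.30 to 0.0273), AXIN2 in Palbociclib (-0.0540 to 0.24) and Telaglenastat tumors (-0.10 to 0.19), RNF43 (-0.20 to 0.20) and ZNRF3 (-0.0016 to 0.14) in Combination tumors, and AXIN2 between Combination and Palbociclib tumors (-0.0061 to 0.17). Of 84 member comparisons, 29 are followed one by one here, those called in any setting and those of AXIN2 and RNF43 against Control, a choice made after the values were seen. The other 55 had 1487 values under the alternatives, 82 of them with the other sign and none called. Depth limits LGR5, LEF1, ASCL2, SP5 and NOTUM most.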
